A study of Mus musculus with 29 samples.

Results

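The SLAM (signaling lymphocytic activation molecule) family comprises the immunoglobulin-superfamily receptors of hematopoietic cells to which CD150, the marker that divided the cells of this study, belongs. The 9 members considered were Slamf1, Cd48, Cd244, Ly9, Cd84, Slamf6, Slamf7, Slamf8 and Slamf9, chosen by gene symbol, and all 9 had a row among the 30025 genes of the expression table. RNA-Seq was performed on 29 libraries from 10 mice on a C57BL/6J background. 5 mice were WT and 5 were 5A3+/del, which are heterozygous in the germ line, and so in every cell, for a deletion made with Cre and loxP sites between Fbxl13 and Srpk2. WT mice were 12.42 to 13.28 weeks old and 5A3+/del mice were 12.42 to 13.85 weeks old. The labels name no treatment. From each mouse, c-kit+ lineage− Sca-1+ bone marrow cells lacking CD41 and CD48 at the surface were sorted by CD150 level into CD150hi hematopoietic stem cells (HSC), CD150lo HSC and CD150neg multipotent progenitors (MPP, named HSC in the sample labels). Each of the 6 groups held 5 libraries apart from the CD150neg MPP of 5A3+/del mice with 4, as mouse 5 had no such library. Expression is given as FPKM, fragments per kilobase of exon scaled by sequencing depth, which allows levels to be compared between genes.

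CD150, the product of Slamf1, is a receptor that binds itself on neighboring cells, as do the products of Ly9 (CD229), Cd84, Slamf6 and Slamf7. CD48, a protein held in the membrane by a lipid anchor, is instead the ligand of CD244 (2B4). Slamf8 and Slamf9 have short cytoplasmic tails that lack the tyrosine motifs of the other receptors, through which these recruit SAP-type adaptors, Src family kinases and phosphatases. In mouse bone marrow, surface CD150 together with the absence of CD48 is the classical signature of HSC, and CD244 and CD48 are gained on progenitors.

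Libraries held 21229468 to 38797734 fragments, as estimated from the spacing of low FPKM values. Fragments per gene rest on this estimate, and 3 fragments were taken as the least that counts as detection. The 7 genes that lie between Fbxl13 and Srpk2 and passed the expression filter had a median 5A3+/del to WT ratio of 0.536, 0.523 and 0.452 from the CD150hi to the CD150neg gate, and all 7 were lower in 5A3+/del in each population. Of the gate, Kit was 111 to 203 FPKM and Ly6a, which encodes Sca-1, was 93.0 to 239 FPKM over the 29 libraries. Of the genes for surface proteins gated against, Cd8a did not exceed 0.0764 FPKM, Cd8b1 0.166 FPKM, Cd3g 0.104 FPKM, Cd3d 1.01 FPKM and Cd3e 1.06 FPKM. Ly6g was at 0 in 24 of the 29 libraries and reached 9.31 FPKM, and Itga2b, which encodes CD41, was 0.836 to 8.53 FPKM. Ptprc, of which B220 is 1 protein form and which blood cells other than B cells also express, was 41.5 to 86.1 FPKM. The 8 neutrophil and monocyte markers summed to 186 to 1501 FPKM with overlapping ranges in all 6 groups. The 3 libraries of WT mouse 3 stood apart in Xist, at 234 to 319 FPKM against at most 0.470 FPKM in the other 26, and results that change without this mouse are marked as such.

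All 9 members lie on chromosome 1 (mm9), within 1031376 bases. Cd244 (173489324–173515449, + strand), Ly9 (173518755–173537541, −), Slamf7 (173562534–173579149, −), Cd48 (173612140–173635389, +), Slamf1 (173697258–173731315, +), Cd84 (173769828–173820849, +) and Slamf6 (173847646–173879083, +) follow one another, with Slamf9 (174405489–174408706, +) and Slamf8 (174511508–174520699, −) further along. RefSeq promoter entries (GRCm38.p6) were found for 8 of the 9 members. The 250 bases before the start are printed for Slamf1, for the ligand and receptor pair Cd48 and Cd244, which rose where Slamf1 fell, and for Cd84, which passed no test in either direction. Each matched mm9 exactly and once, on the + strand, at chr1:173697013-173697262 for Slamf1, chr1:173611873-173612122 for Cd48, chr1:173489074-173489323 for Cd244 and chr1:173769578-173769827 for Cd84. Capitals mark matches on either strand to the core motifs GATAA (GATA factors), CCGGAA (ETS), TGTGGT (RUNX), CAGNTG (E-box) and the IRF element, with no overlap between motifs.
Slamf1: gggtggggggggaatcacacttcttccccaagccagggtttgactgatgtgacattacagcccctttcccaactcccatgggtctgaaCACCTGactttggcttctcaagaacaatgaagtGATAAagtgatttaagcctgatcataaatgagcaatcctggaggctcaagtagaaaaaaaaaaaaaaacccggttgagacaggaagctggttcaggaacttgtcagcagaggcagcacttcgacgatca
Cd48: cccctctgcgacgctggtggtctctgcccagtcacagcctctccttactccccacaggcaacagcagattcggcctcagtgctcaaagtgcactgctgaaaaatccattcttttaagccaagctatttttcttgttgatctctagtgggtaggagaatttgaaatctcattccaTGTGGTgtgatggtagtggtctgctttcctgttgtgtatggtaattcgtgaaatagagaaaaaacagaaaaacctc
Cd244: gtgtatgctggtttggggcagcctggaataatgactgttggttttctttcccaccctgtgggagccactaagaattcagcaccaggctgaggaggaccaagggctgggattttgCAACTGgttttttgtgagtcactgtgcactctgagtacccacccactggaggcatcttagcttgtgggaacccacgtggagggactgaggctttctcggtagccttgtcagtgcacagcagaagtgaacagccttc
Cd84: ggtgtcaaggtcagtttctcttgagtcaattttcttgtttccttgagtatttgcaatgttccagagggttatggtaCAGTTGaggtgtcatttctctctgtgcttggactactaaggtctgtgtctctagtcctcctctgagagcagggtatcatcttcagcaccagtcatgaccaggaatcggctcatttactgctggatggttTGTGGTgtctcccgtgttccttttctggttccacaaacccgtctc
The Slamf1 window held 1 GATAA, which begins at position −129 from the start, and 1 E-box at −162. GATAA was in none of the other 7 member promoters and in 22.6% of all 32851 promoter windows of this length. TGTGGT was in the Cd48 and Cd84 windows and in 14.0% of all windows, and CAGNTG was in the Slamf1, Cd244 and Cd84 windows and in 44.8% of all windows. CCGGAA, in 12.0% of all windows, had no match in these 4 windows, and neither had the IRF element, in 2.98% of all windows.

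The first question was how the family is expressed along the CD150 gates. Mean Slamf1 was 8.90-fold lower in CD150lo than in CD150hi HSC of WT mice and 16.8-fold lower in 5A3+/del mice, and Cd48, Cd244 and Ly9 rose along the same gates, so that the family's makeup turned over while Cd84 passed no test. As Slamf1 encodes the protein used for sorting and CD48 was a gate in all 3 populations, their order between gates describes transcripts of sorted proteins. Cd244, Ly9, Cd84 and Slamf6 to Slamf9 were not used in the sort. The 5 NK cell markers Ncr1, Klrb1c, Gzma, Prf1 and Eomes moved with the first step as well. They summed to 0.864 to 4.16 FPKM in WT CD150hi and 0.223 to 0.727 FPKM in WT CD150lo HSC, and to 1.56 to 6.06 FPKM and 0.270 to 1.20 FPKM in 5A3+/del, without overlap. Of these, Klrb1c reached 6.06 FPKM, whereas none of the others exceeded 0.603 FPKM and the NK-defining Ncr1 was at 0 in 28 of 29 libraries. The part of these transcripts in the member differences was not tested. In bulk RNA, fewer cells that express a gene and less RNA per cell cannot be told apart.

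**Figure D1:**
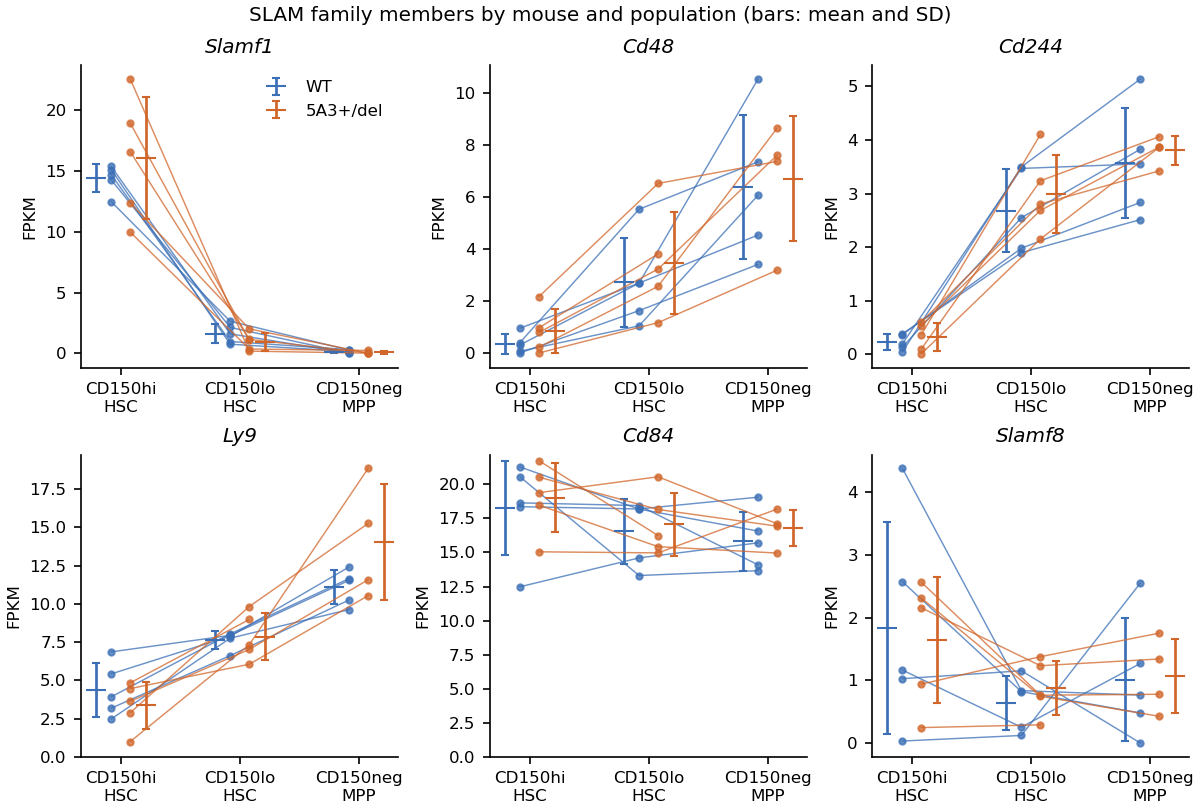
FPKM (y axis, linear) of the 6 members past the expression filter in the 3 populations (x axis), with 1 point per library, lines joining libraries of 1 mouse, and horizontal and vertical bars for the mean and SD of each genotype. Slamf1 descends from 9.97 to 22.6 FPKM in CD150hi HSC to at most 0.296 FPKM in CD150neg MPP, Cd48, Cd244 and Ly9 ascend in every mouse, and Cd84 stays between 12.5 and 21.7 FPKM.

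Slamf1 was 14.3, 15.4, 15.1, 12.5 and 14.7 FPKM in the CD150hi HSC of WT mice 1 to 5. It was 2.13, 1.60, 0.749, 2.64 and 0.970 FPKM in their CD150lo HSC. In WT CD150neg MPP it was 0.0138, 0.00951, 0.142, 0.267 and 0.296 FPKM. The groups did not overlap at either step. In 5A3+/del mice Slamf1 was 22.6, 12.4, 16.6, 9.97 and 18.9 FPKM in CD150hi HSC and 0.180, 2.01, 1.15, 0.352 and 1.09 FPKM in CD150lo HSC. In the 4 libraries of 5A3+/del CD150neg MPP it was 0.0120, 0.0114, 0.0222 and 0.234 FPKM. CD150hi HSC lay above the other populations in every 5A3+/del mouse, whereas the lowest CD150lo library, of mouse 1, was below the highest CD150neg library, of mouse 4. In fragments, Slamf1 had 1 to 2 in 5 of the 9 CD150neg libraries and 16 to 31 in the other 4, which were WT mice 3, 4 and 5 and 5A3+/del mouse 4, so that detection in this population was uneven between mice of 1 genotype.

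The mean of Slamf1 in WT was 14.4 ± 1.15 FPKM (SD, n = 5) in CD150hi HSC, then 1.62 ± 0.786 FPKM (SD, n = 5) in CD150lo HSC and 0.146 ± 0.135 FPKM (SD, n = 5) in CD150neg MPP. Between the gates, differences were tested with limma on quantile-normalized log2(FPKM + 1), a scale that understates the change of low genes, and are given as log2 difference ± SE with Benjamini-Hochberg adjustment over the 15409 genes past the filter. Slamf1 was higher in CD150hi than in CD150lo HSC by 2.62 ± 0.205 in WT (limma adjusted p = 2.15e-09) and by 3.19 ± 0.205 in 5A3+/del (limma adjusted p = 6.50e-11), in 10 of 10 mice. From CD150lo HSC to CD150neg MPP it fell further by 1.13 ± 0.205 in WT (limma adjusted p = 0.0227). This last call held in 9 of the 17 alternatives, although CD150lo exceeded CD150neg in 9 of 9 mice. It was lost, for instance, with mouse as a block (limma adjusted p = 0.0686) and without WT mouse 3 (limma adjusted p = 0.0612). The highest value was reached without WT mouse 2 (limma adjusted p = 0.199). In 5A3+/del the corresponding difference was 0.72 ± 0.217 (limma adjusted p = 0.606).

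Cd48, the ligand, was lowest where Slamf1 was highest. In WT CD150hi HSC it was 0.0666, 0, 0.309, 0.951 and 0.400 FPKM, which is 0 to 31 fragments. It was 1.04, 1.63, 2.68, 2.69 and 5.52 FPKM in WT CD150lo HSC and 6.06, 3.40, 10.5, 4.53 and 7.34 FPKM in WT CD150neg MPP. CD150hi HSC lay below the other populations without overlap, and every mouse of both genotypes ascended at both steps. In 5A3+/del mice Cd48 was 0, 2.17, 0.222, 0.789 and 0.969 FPKM in CD150hi HSC and 1.16, 6.51, 2.56, 3.22 and 3.80 FPKM in CD150lo HSC. In 5A3+/del CD150neg MPP it was 3.18, 7.36, 8.64 and 7.60 FPKM. 5A3+/del mouse 2 had the highest Cd48 of its genotype in both HSC populations, and its CD150hi library overlapped the CD150lo libraries. The CD150hi minus CD150lo difference was −1.41 ± 0.346 in WT (limma adjusted p = 0.0176) and −1.30 ± 0.346 in 5A3+/del (limma adjusted p = 0.0315). The WT value was −1.30 without WT mouse 3 (limma adjusted p = 0.0843) and −1.20 without WT mouse 5 (limma adjusted p = 0.124), and the 5A3+/del call was lost without mouse 3, 4 or 5 (limma adjusted p = 0.132, 0.104 and 0.101). Across the whole range, CD150hi HSC against CD150neg MPP, Cd48 differed by −2.37 ± 0.346 in WT (limma adjusted p = 2.49e-05) and by −2.13 ± 0.367 in 5A3+/del (limma adjusted p = 0.000283).

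Cd244, the receptor of CD48, rose together with it but mainly at the first step. It was 0.380, 0.193, 0.133, 0.369 and 0.0411 FPKM in WT CD150hi HSC. It was 1.90, 3.47, 2.55, 1.98 and 3.50 FPKM in WT CD150lo HSC and 2.51, 3.55, 3.83, 2.84 and 5.14 FPKM in WT CD150neg MPP. The first of these populations did not overlap with the others, and the others overlapped with each other. In 5A3+/del CD150hi HSC Cd244 was 0.00974, 0.536, 0.606, 0.101 and 0.367 FPKM. It was 2.15, 2.68, 2.80, 3.24 and 4.10 FPKM in 5A3+/del CD150lo HSC and 3.87, 3.87, 3.43 and 4.06 FPKM in 5A3+/del CD150neg MPP. Mean Cd244 was 12.0-fold higher in CD150lo than in CD150hi HSC of WT mice and 9.25-fold higher in 5A3+/del mice. On the log2 scale the CD150hi minus CD150lo difference was −1.49 ± 0.173 in WT (limma adjusted p = 2.24e-06) and −1.56 ± 0.173 in 5A3+/del (limma adjusted p = 1.05e-06), and both calls held in every alternative run. The CD150lo minus CD150neg difference was −0.26 ± 0.173 in WT (limma adjusted p = 0.735) with a 95% interval of −0.62 to 0.09, although CD150neg was the higher in 9 of 9 mice.

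Ly9, a receptor that binds itself, was well detected in all libraries, with 87 to 1535 fragments. In WT mice it was 2.47, 6.86, 3.18, 3.92 and 5.42 FPKM in CD150hi HSC, 7.76, 7.94, 6.61, 8.03 and 7.88 FPKM in CD150lo HSC, and 9.63, 11.5, 10.3, 11.7 and 12.4 FPKM in CD150neg MPP. In 5A3+/del mice it was 0.988, 2.88, 3.63, 4.46 and 4.83 FPKM in CD150hi HSC, 7.33, 9.82, 7.02, 6.05 and 8.98 FPKM in CD150lo HSC, and 18.9, 15.3, 11.6 and 10.5 FPKM in CD150neg MPP. Within each mouse Ly9 ascended at both steps, and the only overlap within a genotype was that of WT mouse 2 in CD150hi HSC with CD150lo HSC. Ly9 was higher in CD150neg MPP than in CD150hi HSC, with a CD150hi minus CD150neg difference of −1.21 ± 0.210 in WT (limma adjusted p = 0.000253) and −1.77 ± 0.223 in 5A3+/del (limma adjusted p = 3.81e-06). The CD150hi minus CD150lo difference was −1.06 ± 0.210 in 5A3+/del (limma adjusted p = 0.00276), which was not called with the compared groups alone (limma adjusted p = 0.0521). In WT it was −0.79 ± 0.210 (limma adjusted p = 0.0305), a call that was lost in 9 of the 17 alternatives, among them each of those without WT mouse 1, 3, 4 or 5 (limma adjusted p = 0.145, 0.160, 0.127 and 0.0697).

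Cd84, a further receptor that binds itself and is known from platelets, B cells and T follicular cells, was the most abundant member on average in all 6 groups. Group means were 15.8 to 19.0 FPKM, and single libraries were 12.5 to 21.7 FPKM (1876 to 4613 fragments). CD150hi HSC exceeded CD150lo HSC in 8 of 10 mice and CD150neg MPP in 6 of 9 mice, and CD150lo HSC exceeded CD150neg MPP in 5 of 9 mice. The CD150hi minus CD150neg difference was 0.23 ± 0.140 in WT (limma adjusted p = 0.358), with a 95% interval of −0.06 to 0.52, and 0.20 ± 0.148 in 5A3+/del (limma adjusted p = 0.572), with a 95% interval of −0.11 to 0.50. In CD150hi HSC its libraries overlapped those of Slamf1, the next in order, and in 5A3+/del CD150neg MPP they overlapped those of Ly9.

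Slamf8, a short-tailed member known mainly from macrophages, varied more between mice than between groups. In WT CD150hi HSC it was 1.16, 0.0318, 1.03, 2.57 and 4.38 FPKM, which is 2 to 282 fragments. In WT CD150neg MPP it was 1.27, 2.55, 0, 0.479 and 0.764 FPKM. Both groups thus ranged from at or near 0 to 2.55 FPKM or more, and they overlapped. The other 4 groups ranged from 0.121 to 2.56 FPKM, and Slamf8 passed no test between populations. The WT CD150hi minus CD150lo difference was 0.69 ± 0.345 (limma adjusted p = 0.369), with a 95% interval of −0.01 to 1.40. The 5 macrophage markers Emr1, C1qa, C1qb, Mrc1 and Vcam1 summed to 0.0179 to 30.8 FPKM over the libraries, with overlapping ranges in all 6 groups, and their part in the spread of Slamf8 was not tested.

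**Figure D2:**
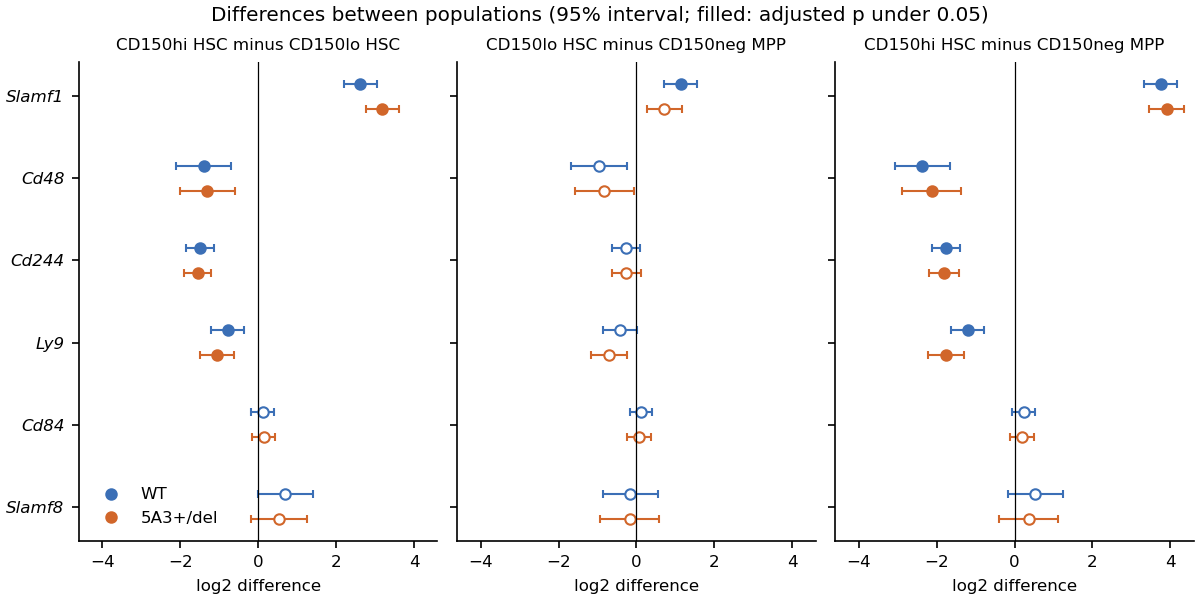
log2 difference between populations within a genotype (x axis, quantile-normalized log2(FPKM + 1)) for the 6 members past the filter (y axis), with 95% intervals from limma. Filled points passed an adjusted p of 0.05, which are Slamf1, Cd48, Cd244 and Ly9 in the outer panels and Slamf1 of WT alone, at 1.13, in the middle panel.

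Counted together, 4 of the 6 members past the filter were called between WT CD150hi and CD150lo HSC, 1 higher and 3 lower in CD150hi, where 3.53% of all genes tested were called. In 5A3+/del the count was also 4 (1 higher, 3 lower) against 3.18% of all genes. Between CD150hi HSC and CD150neg MPP it was 4 in WT against 10.0% of all genes and 4 in 5A3+/del against 6.16%, again with 1 higher and 3 lower. Between CD150lo HSC and CD150neg MPP it was 1 in WT against 0.188% of all genes. In 5A3+/del none was called at this step by limma against 0.0389% of all genes, with 3 members at an unadjusted p under 0.05. The member called higher was Slamf1 each time, and Cd48 was among those called lower. Both encode proteins used in the sort, so these counts do not measure the family apart from the sort. The other called members, Cd244 and Ly9, were not used in the sort. These comparisons share libraries, since the CD150hi and CD150neg groups each enter a pair of them. The median log2 difference of the 6 members was −0.34 for WT CD150hi minus CD150lo HSC and −0.49 for WT CD150hi HSC minus CD150neg MPP, with −0.0027 and −0.0070 over all genes.

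**Figure D3:**
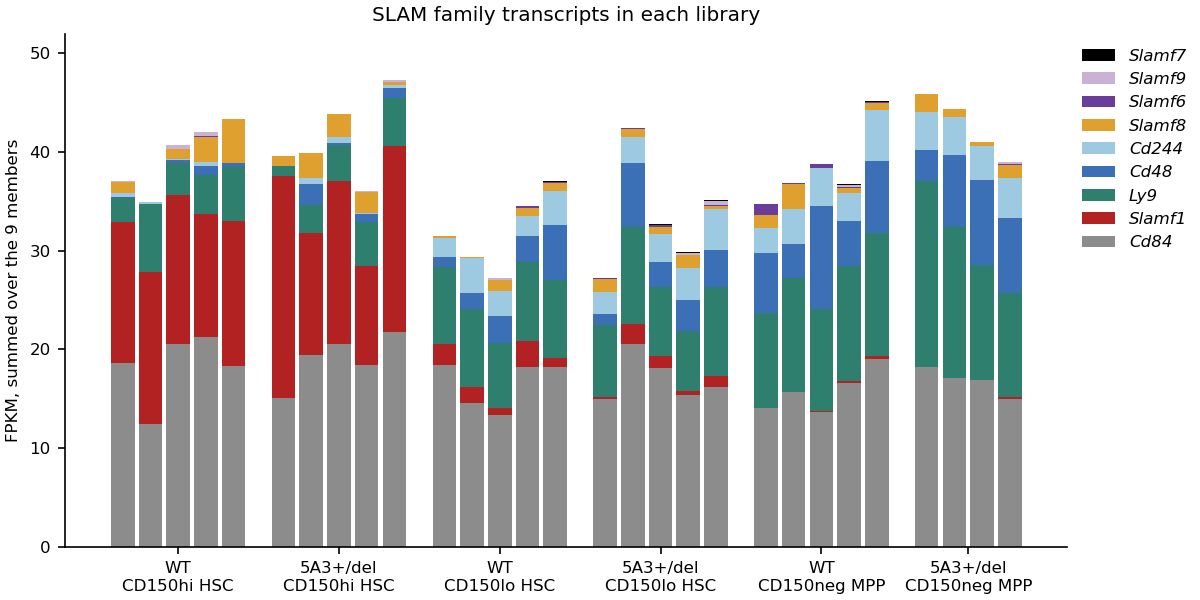
FPKM of the 9 members stacked for each library (y axis), grouped by genotype and population (x axis), in replicate order within a group. Slamf1 makes up 27.7% to 57.1% of the sum in the 10 CD150hi libraries and at most 0.728% in the CD150neg libraries, where Ly9, Cd48 and Cd244 take a larger share.

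The summed FPKM of the 9 members described the change in makeup. In WT the sum was 39.6 ± 3.51 FPKM (SD, n = 5) in CD150hi HSC, 31.9 ± 3.93 FPKM (SD, n = 5) in CD150lo HSC and 38.5 ± 4.00 FPKM (SD, n = 5) in CD150neg MPP. Slamf1 supplied 36.7% ± 5.34 (SD, n = 5) of it in WT CD150hi HSC, 5.04% ± 2.29 (SD, n = 5) in CD150lo HSC and 0.363% ± 0.330 (SD, n = 5) in CD150neg MPP. Over the same gates the share of Ly9 was 11.2%, 24.1% and 28.9% on average, and that of Cd48 was 0.825%, 8.27% and 16.5%. The share of Cd84 was 45.9%, 51.8% and 41.1%. In 5A3+/del mice the sums were 41.4 ± 4.36 (SD, n = 5), 33.5 ± 5.85 (SD, n = 5) and 42.6 ± 3.13 FPKM (SD, n = 4).

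The order of the members was read per length from FPKM. In CD150hi HSC of both genotypes the order of means was Cd84, Slamf1, Ly9, Slamf8, Cd48, Cd244, Slamf9, Slamf6 and Slamf7, and the only gap without overlapping libraries was that between Slamf1 and Ly9. In CD150lo HSC of both genotypes it began with Cd84, Ly9, Cd48, Cd244 and Slamf1, where Cd84 stood clear of Ly9 and where Cd48 and Cd244 overlapped. In CD150neg MPP it began with Cd84, Ly9, Cd48, Cd244 and Slamf8, and Slamf1 ranked between Slamf6 and Slamf9 in WT and just above Slamf9 in 5A3+/del.

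The second question was whether the 5A3 deletion changed the family. None of the 6 members past the filter was called between 5A3+/del and WT by limma in any population, where limma called 0.156%, 0.0324% and 0.0454% of all genes from the CD150hi to the CD150neg gate. At an unadjusted p under 0.05 there were 0, 1 and 0 members. The member was Slamf1 in CD150lo HSC, with a mean of 0.957 ± 0.730 FPKM (SD, n = 5) in 5A3+/del and 1.62 ± 0.786 FPKM (SD, n = 5) in WT. Its libraries overlapped, and the difference of −0.46 ± 0.205 did not pass (limma adjusted p = 0.663). The 95% interval was −0.88 to −0.04, and leaving out 1 mouse at a time gave −0.65 to −0.32. In CD150hi HSC the 5A3+/del minus WT difference of Slamf1 was 0.11 ± 0.205 (limma adjusted p = 0.865), with a 95% interval of −0.31 to 0.53, and 5A3+/del libraries were spread more widely (SD 5.04 against 1.15 FPKM).

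Of the other members, Ly9 in CD150neg MPP was 14.1 ± 3.79 FPKM (SD, n = 4) in 5A3+/del and 11.1 ± 1.13 FPKM (SD, n = 5) in WT, a difference of 0.30 ± 0.223 (limma adjusted p = 1.00) with a 95% interval of −0.15 to 0.76. Cd48 in CD150hi HSC differed by 0.33 ± 0.346 (limma adjusted p = 0.737), with a 95% interval of −0.38 to 1.04. Cd84 was bounded most closely, with 95% intervals of −0.22 to 0.35 for CD150hi HSC, −0.25 to 0.33 for CD150lo HSC and −0.21 to 0.40 for CD150neg MPP. Intervals of Cd244 reached from −0.31 to 0.40 in CD150hi HSC, and those of Slamf8 from −0.71 to 0.71, so that a change of Slamf8 of that size was not detectable with these mice. Every one of the 6 members overlapped between the genotypes in each population, where 2.37%, 1.49% and 1.49% of the genes past the filter did not overlap.

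Whether the differences between gates depended on the genotype was tested as an interaction, and limma called no member and no gene at any of the 3 steps. No member had an unadjusted p under 0.05, and over all genes tested 614, 771 and 1227 did, from CD150hi to CD150lo, CD150lo to CD150neg and CD150hi to CD150neg. The largest member estimates were 0.57 ± 0.289 for Slamf1 from CD150hi to CD150lo HSC (limma adjusted p = 1.00), with a 95% interval of −0.02 to 1.16, and −0.56 ± 0.306 for Ly9 from CD150hi HSC to CD150neg MPP (limma adjusted p = 0.661), with a 95% interval of −1.19 to 0.07. Thus Slamf1 fell at the second step past the threshold in WT and not in 5A3+/del, but the difference between the genotypes was −0.42 ± 0.298 (limma adjusted p = 0.997).

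Slamf6, Slamf7 and Slamf9 did not reach 1 FPKM in 4 libraries and were tested by exact two-sided permutation of the difference of mean log2(FPKM + 1), with 9 tests between genotypes and 9 between populations. Their p-values are not adjusted. Slamf6, known as Ly108 on T and NK cells, was found at 7 to 69 fragments in WT CD150neg MPP, against 0 to 6 fragments in 5A3+/del CD150neg MPP. The WT libraries were at 1.16, 0.0808, 0.409, 0.168 and 0.116 FPKM, and the 5A3+/del libraries at 0, 0, 0.0135 and 0.0681 FPKM. The genotypes did not overlap, and the 5A3+/del minus WT difference was −0.39 (exact permutation p = 0.0476, n = 9). Without 1 WT mouse at a time the exact permutation p was 0.0286, without any 1 of the 4 5A3+/del mice it was 0.125, and on linear FPKM it was 0.0794. Of the 1760 genes under the filter with at least 100 fragments in these 9 libraries, 1.14% were lower in 5A3+/del without overlap.

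Slamf6 did not show this order in the other populations. In CD150lo HSC it was at 4 to 13 fragments in 5A3+/del and at 0 to 14 in WT (exact permutation p = 0.254, n = 10). In CD150hi HSC it had 0 to 3 fragments in every library. Over both genotypes it had a CD150hi minus CD150lo difference of −0.08 on the log2 scale (exact sign-flip permutation p = 0.0156, n = 10 mice) and a CD150hi minus CD150neg difference of −0.23 (exact sign-flip permutation p = 0.0312, n = 9 mice). Only 1 of these differences kept an exact p under 0.05 without WT mouse 1, 2, 4 or 5 or without 5A3+/del mouse 4. From CD150hi HSC to CD150neg MPP, mean Slamf6 went from 0.0179 to 0.387 FPKM in WT, without overlap. In 5A3+/del it went from 0.00960 to 0.0204 FPKM (0 to 2 and 0 to 6 fragments), with overlap. CD150neg MPP was higher in 6 of 9 mice, lower in 1 and equal in 2. Differences between populations within a genotype were not tested for Slamf6. The 6 T cell markers Cd3d, Cd3e, Cd3g, Cd8a, Cd4 and Trbc1 summed to 1.32 to 4.79 FPKM in WT and 2.11 to 4.61 FPKM in 5A3+/del CD150neg MPP. The median sums were 3.00 and 3.24 FPKM, so that the list as a whole was not lower in 5A3+/del. Cd3e, which defines T cells, was at 0 in 4 of these WT libraries, among them mouse 1 with the highest Slamf6, and at 1.06 FPKM in mouse 4. In 5A3+/del CD150neg MPP Cd3e was 0.0283, 0, 0.131 and 0 FPKM, which overlapped WT. Cd3d, another T cell receptor subunit, was 0.489 to 0.785 FPKM in WT and 0.0307 to 0.313 FPKM in 5A3+/del CD150neg MPP, thus also lower without overlap, and Cd3g was at most 0.0845 FPKM in WT and at 0 in all 4 5A3+/del libraries. The sort excluded cells with CD3 at the surface, and the part of T cell transcripts in the Slamf6 difference was not tested.

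**Figure D4:**
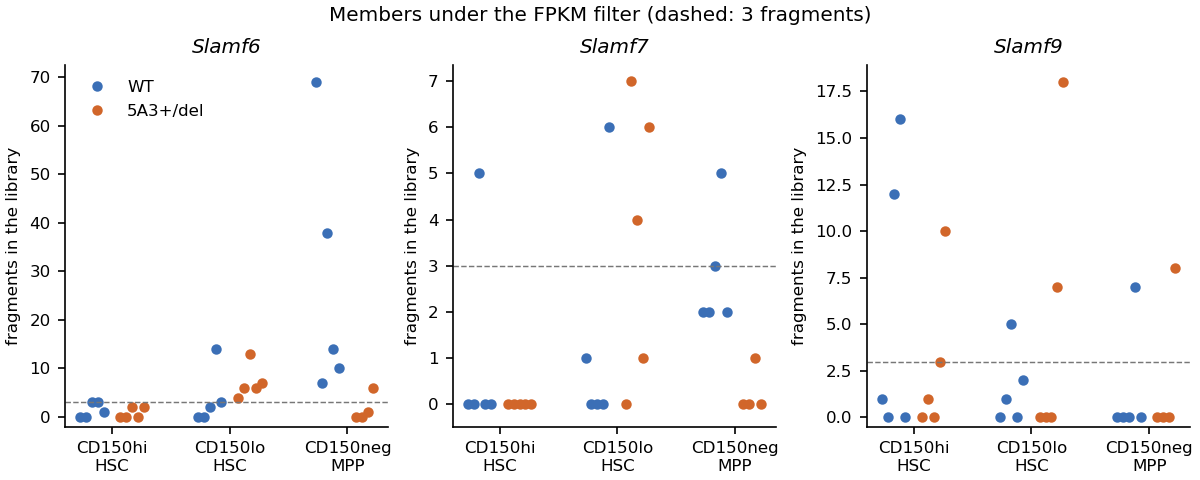
Fragments per library (y axis, linear, a scale per panel) of the 3 members under the filter in the 3 populations (x axis), 1 point per library, with a dashed line at the 3 fragments taken as detection. In CD150neg MPP the WT libraries of Slamf6 have 7 to 69 fragments and the 5A3+/del libraries 0 to 6, while Slamf7 never exceeds 7 and Slamf9 never exceeds 18.

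Slamf7, known as CRACC on NK and plasma cells, and the short-tailed Slamf9 were at the edge of detection. Slamf7 reached 3 fragments in 7 of 29 libraries and was at 0 in 16, with 7 fragments at most. In CD150neg MPP it had 2 to 5 fragments in WT and 0 to 1 in 5A3+/del (exact permutation p = 0.00794, n = 9), which is the smallest p that this design allows. That difference of −0.03 on the log2 scale rests on 14 fragments in WT and 1 in 5A3+/del, and 0.399% of the 4508 genes under the filter with 10 to fewer than 100 fragments in these libraries were likewise lower without overlap. Slamf9 reached 3 fragments in 9 libraries and was at 0 in 16, and none of its 6 tests had an exact permutation p under 0.05 (0.312 to 0.727).

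The partners of the receptors were described with a list of 29 genes comprising a ligand outside the family, SAP-type adaptors, Src family kinases, phosphatases and their effectors. Of these, 28 had a row in the table and 23 passed the filter. The adaptors were scarce. Sh2d1a, which encodes SAP, had at most 1 fragment in any library. Sh2d1b1, which encodes EAT-2, ranged from 0 to 1.72 FPKM, and its highest libraries were those of WT mouse 2 (1.72 FPKM) and WT mouse 3 (0.582 FPKM) in CD150neg MPP. Sh2d1b2 did not exceed 0.139 FPKM. The kinases and phosphatases that bind the same tyrosine motifs were present in every group. Fyn means were 5.71 to 7.64 FPKM, Lyn means 15.6 to 24.9 FPKM, and means of Ptpn6, which encodes the phosphatase SHP-1, 25.3 to 31.8 FPKM.

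Within this list, limma called 2 of 23 genes in WT between CD150hi HSC and CD150neg MPP, both lower in CD150hi. That share was not above the 10.0% of all genes that were called. Lck, a Src family kinase of T cells, was 1.98 ± 1.03 FPKM (SD, n = 5) in WT CD150hi HSC and 4.98 ± 2.95 FPKM (SD, n = 5) in WT CD150neg MPP, a difference of −0.90 ± 0.259 (limma adjusted p = 0.0241). The 6 T cell markers listed above summed to 0.285 to 2.09 FPKM in WT CD150hi HSC and 1.32 to 4.79 FPKM in WT CD150neg MPP. These ranges overlapped, and Cd3e was at 0 in 4 of 5 libraries of each. In 5A3+/del the same markers summed to 0.409 to 1.91 FPKM and 2.11 to 4.61 FPKM, without overlap. There Lck differed by −0.20 ± 0.275 (limma adjusted p = 0.799). Median Cd4 over the libraries was 1.34 FPKM, against 0.200 FPKM for Cd3d and 0 for Cd3e, Cd3g, Cd8a and Trbc1. The part of T cell transcripts in the Lck difference was not tested. Inpp5d, which encodes the lipid phosphatase SHIP-1, was 18.8 ± 5.66 FPKM (SD, n = 5) in WT CD150hi HSC and 28.0 ± 4.65 FPKM (SD, n = 5) in WT CD150neg MPP. Its difference was −0.54 ± 0.159 (limma adjusted p = 0.0267). Without WT mouse 2 the limma adjusted p was 0.178 for Lck and 0.0868 for Inpp5d, without WT mouse 3 it was 0.0979 and 0.0904, and Inpp5d was also not called without WT mouse 1 (limma adjusted p = 0.220). In the other 11 comparisons limma called none of the 23, with 0 to 3 at an unadjusted p under 0.05. The median log2 difference of the list was −0.16 for WT CD150hi HSC minus CD150neg MPP and −0.0070 over all genes, and from the CD150hi to the CD150neg gate it was 0.07, −0.03 and −0.0035 between the genotypes.

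**Figure D5:**
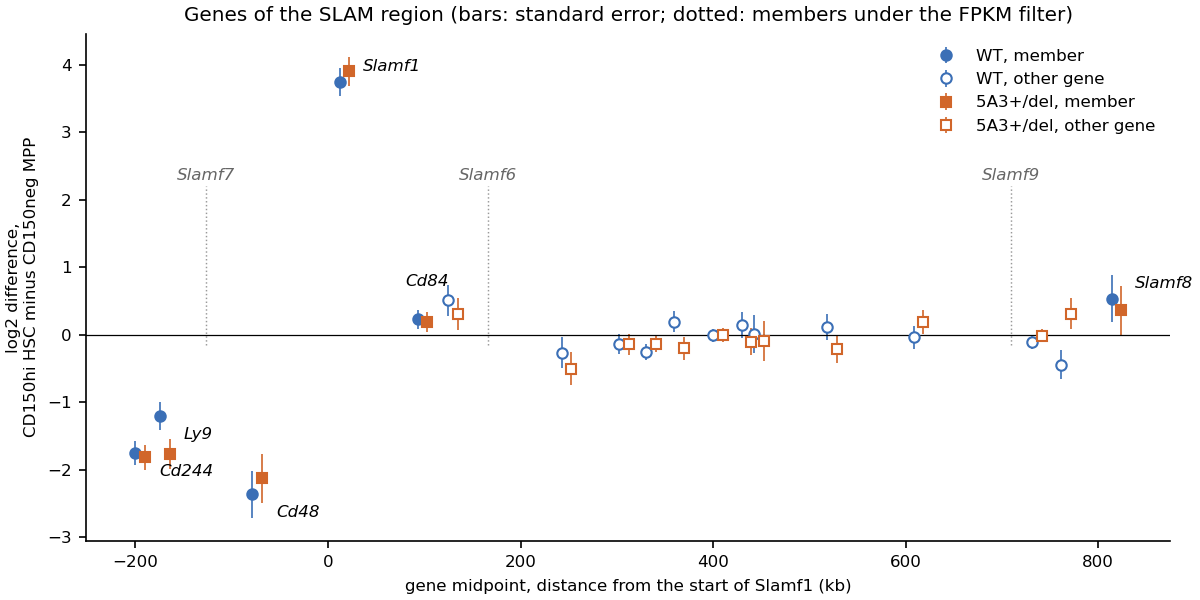
log2 difference of CD150hi HSC minus CD150neg MPP (y axis, quantile-normalized log2(FPKM + 1), bars for the SE) against the distance of each gene's midpoint from the start of Slamf1 (x axis, kb), for the members (filled) and the other protein-coding genes (open) of the region that passed the filter, with dotted lines at the members that did not. Slamf1 stands at 3.75 in WT and 3.90 in 5A3+/del, Cd48, Ly9 and Cd244 upstream of it lie between −2.37 and −1.21, and the other 12 genes lie between −0.50 and 0.51.

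Position along the chromosome was set beside these differences. The members that rose from CD150hi HSC to CD150neg MPP, Cd244, Ly9 and Cd48, lie on the side of Slamf1 where its own transcription starts, and Cd84 lies behind its end. In the region spanned by the family there are 28 protein-coding genes, of which 19 are not members and 12 of these passed the filter. None of the 12 was called between CD150hi HSC and CD150neg MPP in either genotype. Between WT CD150hi and CD150lo HSC 1 was called, Gm10521, the gene between Cd84 and Slamf6, with 10.4 and 4.80 FPKM on average and a difference of 0.94 ± 0.227 (limma adjusted p = 0.0152). Of the other genes next to a member, Vangl2 was 2.80 to 4.25 FPKM and Pigm 8.52 to 11.4 FPKM on average, and Igsf9 and Vsig8 did not pass the filter. None of the 12 was called between the genotypes.

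The genes most like each member over the 29 libraries were taken by Pearson's r of normalized log2 values, which describes these libraries, since they share mice, gates and normalization. For Slamf1 they were Tenc1 (r = 0.974), Mtss1l (r = 0.965) and Clec9a (r = 0.962). For Cd48 they were Sema3d (r = 0.914), Itgam (r = 0.887), which encodes CD11b, and Pik3ap1 (r = 0.881). For Cd244 they were BC035044 (r = 0.952), Cd53 (r = 0.948) and Satb1 (r = 0.945), and for Ly9 Il1r1 (r = 0.893), C030034L19Rik (r = 0.892) and Gm11428 (r = 0.890). The highest r was lower for Cd84, with 4930447C04Rik (r = 0.840), Itga6 (r = 0.743) and Casp4 (r = 0.708), and for Slamf8, with Pitpnm1 (r = 0.680), Phb (r = 0.678) and Man2c1 (r = 0.642). Neither was called between gates, whereas the 4 members above were, and r over all libraries also takes in differences between gates. No single gene appeared for more than 1 member.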

How the data were processed

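RNA from sorted cells was amplified (Ovation V2), made into TruSeq libraries without strand marking and sequenced with paired ends by the authors, who mapped reads to mm9. The submitters' processing notes name Bowtie 0.12.2 and HTSeq. The authors deposited 1 table of FPKM values per gene and library, of which all 29 columns were used. The measure analysed in the publication (read coverage of a gene's most covered coding exon) differs from FPKM. Groups follow the labels' genotype and cell type, and a code in the labels ties populations to mice. Same-mouse libraries deviated together little (median r = 0.0786 over 28 pairs), and mouse was used as a block in an alternative because the libraries share an animal.

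FPKM multiplied by exon length (GENCODE, mm9, 29279 of 30025 genes matched) and depth gave whole fragments within 0.02 for 98.2% to 98.7% of low values. The depth of each library was itself estimated from the spacing of these low values, so that this share is not an independent check. Counting limits cover counting error only, since amplified fragments are not independent molecules. No count test was run.

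The 15409 genes that reached 1 FPKM in 4 or more libraries were transformed as log2(FPKM + 1), quantile normalized and fitted with limma 3.58.1 in R 4.3.3 with 6 group means, which share 1 estimate of the spread. The threshold was 0.05 on two-sided p-values adjusted over these genes by Benjamini-Hochberg. The fit was tested on simulated data, for the genotype difference in CD150hi HSC alone. The simulated libraries were independent, so that libraries sharing a mouse were not covered. Members under the filter were tested by exact permutation between genotypes and by sign flips of within-mouse differences between populations.

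Alternatives were a pseudocount of 0.1, no filter, no quantile normalization, median scaling, a variance trend, the compared groups alone, the block and leaving out each mouse. Named genes were the 9 members, called genes of the signaling list with the SAP-type adaptors, the 3 genes most like each tested member by Pearson's r, and protein-coding neighbors. The members and lists were chosen with earlier results of these data known. Of the marker lists, that of stem and progenitor cells summed to 737 to 1291 FPKM over the libraries and the T cell list to 0.285 to 10.8. The NK cell list summed to 0.0113 to 6.06 FPKM, the B cell list to 6.20 to 32.2, the mast cell and basophil list to 0.0223 to 4.67, the dendritic list to 50.7 to 166 and the megakaryocyte list to 22.7 to 58.5 FPKM over the libraries. The remaining marker lists are not reported here. Cd2, on the signaling list, was not analysed here.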

Additional observations from a re-analysis of the deposited data

Results flagged for a closer look

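Among 53 combinations of a member and a group, 10 single libraries lay further from the others of their group than Dixon's 95% critical value allows. Chance alone flags about 1 in 20 groups of normally distributed values. That rate does not hold for groups mostly at or near 0 fragments, so the number flagged cannot be judged by it. 2 of them concern members that passed the expression filter. Slamf1 in 5A3+/del CD150neg MPP was 0.234 FPKM (25 fragments) in mouse 4 and at most 0.0222 FPKM (1 to 2 fragments) in the other 3. Only 1 of these 4 libraries reached the 3 fragments taken as detection. Ly9 in WT CD150lo HSC was 6.61 FPKM in mouse 3, which also stands apart in Xist, and 7.76 to 8.03 FPKM in the other 4.

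The remaining 8 are members near the edge of detection. Slamf6 in CD150lo HSC was 0.190 FPKM in WT mouse 4 (others at most 0.0397) and 0.202 FPKM in 5A3+/del mouse 3 (others at most 0.0869). Slamf7 was 0.0436 FPKM in WT CD150hi HSC of mouse 3, 0.0529 FPKM in WT CD150lo HSC of mouse 5, 0.0400 FPKM in WT CD150neg MPP of mouse 4 and 0.00897 FPKM in 5A3+/del CD150neg MPP of mouse 3, which are 1 to 6 fragments each. Slamf9 in CD150neg MPP was 0.179 FPKM in WT mouse 4 and 0.194 FPKM in 5A3+/del mouse 4, and 0 in all other libraries of this population.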

How the results depend on the processing

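The counts of members called between the genotypes, for the interactions, between CD150hi HSC and CD150neg MPP in both genotypes, and between CD150lo HSC and CD150neg MPP in 5A3+/del were identical, at 0, 0, 4 and 0, in every alternative run. Between WT CD150hi and CD150lo HSC the count was 2 to 4 without 1 mouse, with 2 reached without WT mouse 3 or 5. The WT call of Ly9 was also lost without the filter (limma adjusted p = 0.0660) and without quantile normalization (limma adjusted p = 0.0791). Median scaling (limma adjusted p = 0.0599) and the compared groups alone (limma adjusted p = 0.0904) lost it too. Between 5A3+/del CD150hi and CD150lo HSC the count was 3 to 4 without 1 mouse and 2 with the compared groups alone (Cd48 and Ly9 lost). The 5A3+/del call of Cd48 was also lost without the filter (limma adjusted p = 0.0737). The single call between WT CD150lo HSC and CD150neg MPP, Slamf1, was 0 without quantile normalization, with the compared groups alone and with mouse as a replicate block, and 0 to 1 without 1 mouse (lost without WT mouse 1, 2, 3 or 4 or 5A3+/del mouse 3). The replicate block changed no other call of a member. For genotype contrasts the shared replicate numbers name different mice (median r = 0.0345), and that block called 0 members. The signaling list count between WT CD150hi HSC and CD150neg MPP was 0 with the compared groups alone and 0 to 2 without 1 mouse, and in 5A3+/del it was 1 without quantile normalization and 0 to 1 without 1 mouse. Of the members under the filter, tests between genotypes with an exact permutation p under 0.05 numbered 2, 1 on linear FPKM and 1 to 3 without 1 mouse, and those between populations 2 and 1 to 2 without 1 mouse (1 without WT mouse 1, 2, 4 or 5 or 5A3+/del mouse 4). No direction reversed in a called member difference. The cause of these changes was not tested. All-gene counts also moved, from 24 to 0 to 100 for the genotype in CD150hi HSC, 5 to 0 to 78 in CD150lo HSC, 7 to 0 to 8 in CD150neg MPP, 29 to 0 to 72 for WT CD150lo HSC against CD150neg MPP and 6 to 0 to 6 in 5A3+/del, 544 to 291 to 627 and 490 to 315 to 602 for CD150hi against CD150lo HSC, and 949 to 449 to 1036 for 5A3+/del CD150hi HSC against CD150neg MPP. Scaling by medians changed the split of genotype calls in CD150hi HSC from 5 higher and 19 lower to 7 and 14, and that of WT CD150lo HSC against CD150neg MPP from 24 and 5 to 13 and 1 (1 and 1 without quantile normalization). In CD150neg MPP genotype calls split 1 and 6, and 0 and 6 without quantile normalization. Interactions reached at most 1, 12 and 2 called genes in any alternative. Depth limits Slamf6, Slamf7 and Slamf9, with at most 69, 7 and 18 fragments.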
